A study of Mus musculus with 5 samples.

Results

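Kupffer cells are the macrophages that reside in the sinusoids of the liver, and they are recognised by the genes they express together. Some of these genes are also expressed by other macrophages or by other cells. The set described here has 10 genes, namely Clec4f, Cd5l, Adgre1, Folr2, Clec1b, Il18bp, Kcna2, Spic, Hpgd and Ptgs1, of 18820 genes measured in all. Each gene was read from the probe set that carries its symbol alone and has the highest mean over the arrays. Of the 10 genes, 9 had such a probe set, 1 each, and Ptgs1 was not analysed here. The samples were whole livers of adult C57Bl/6 mice, 1 liver sample per array, with 3 arrays from mice given rat IgG as control and 2 arrays from mice given M279, an antibody against the receptor CSF1R. Both groups received 300 µg per injection into the peritoneal cavity, 3 injections a week for 6 weeks, so the control animals carried the same handling and an antibody of rat origin. The labels do not say whether livers were pooled or came from separate animals, and the p-values reflect the spread among the 5 arrays, which may be technical in part.

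CSF1R is a receptor tyrosine kinase on monocytes and macrophages, and its ligands CSF1 and IL-34 keep these cells alive. Resident macrophages of the liver depend on this signal, and they hold their identity through transcription factors such as LXR alpha, PU.1, MAF proteins and SpiC together with signals from neighbouring sinusoidal endothelial and stellate cells. Among the genes of the set, Clec4f encodes a lectin of Kupffer cells that binds galactose and N-acetylgalactosamine, and Adgre1 encodes the antigen F4/80 of mouse macrophages. The question put to the samples was how long treatment with the antibody altered gene expression in liver.

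Expression of these genes starts at promoters, and the stretches of 250 bases before the transcription start are shown for 3 genes of differing behaviour on the treated arrays: the defining gene Clec4f, Cd5l and the transcription factor gene Spic. The sequences are from RefSeq in build GRCm38.p6, at chr6:83656117-83656366 on the minus strand for Clec4f, chr3:87357631-87357880 on the plus strand for Cd5l and chr10:88683024-88683273 on the minus strand for Spic. Capitals mark the letters TGCTGA, a half-site of the MAF family, on either strand.
Clec4f: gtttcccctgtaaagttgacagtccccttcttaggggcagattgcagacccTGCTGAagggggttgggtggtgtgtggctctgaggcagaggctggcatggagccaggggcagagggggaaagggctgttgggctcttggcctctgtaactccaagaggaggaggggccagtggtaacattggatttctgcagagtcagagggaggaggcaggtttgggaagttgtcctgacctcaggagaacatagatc
Cd5l: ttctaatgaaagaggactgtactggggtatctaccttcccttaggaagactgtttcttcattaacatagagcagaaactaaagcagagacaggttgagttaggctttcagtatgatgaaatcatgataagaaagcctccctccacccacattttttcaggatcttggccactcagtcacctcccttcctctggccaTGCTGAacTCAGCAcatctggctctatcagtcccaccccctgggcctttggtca
Spic: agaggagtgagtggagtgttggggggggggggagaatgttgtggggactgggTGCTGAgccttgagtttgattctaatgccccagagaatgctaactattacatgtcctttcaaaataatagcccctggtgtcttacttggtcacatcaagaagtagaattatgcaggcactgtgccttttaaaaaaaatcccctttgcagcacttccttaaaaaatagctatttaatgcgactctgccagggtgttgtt
Promoter windows were found for 9 of the 10 genes, 10 windows in all because Folr2 has more than 1 start, and Adgre1 had none. The MAF half-site was present in 5 of these 10 windows, those of Clec4f, Cd5l, Spic and Folr2, of which the latter counts with both of its windows, and in 16.1% of 32851 windows of all genes. In Cd5l the site occurs 2 times, on opposite strands. The PU.1 core GAGGAA was present in 3 of the 10 windows (Cd5l, Hpgd and Ptgs1) and in 23.3% of all windows. The LXR half-site AGGTCA and the RBPJ core TGGGAA were each present in 1 window, both in that of Clec4f, against 14% and 21.6% of all windows. The SMAD motif CAGACA was in 0 of the 10 windows, against 17.1% of all windows. Each motif was searched on both strands, the MAF half-site was chosen for display after the matches were seen, and a match describes letters and not binding.

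None of the 9 measured genes passed an adjusted p of 0.05 when the 2 treated arrays were compared with the 3 controls in limma (Benjamini-Hochberg over 35556 probe sets, two-sided). The adjusted p ran from 0.252 for Adgre1 to 0.921 for Cd5l, and over all 35556 probe sets 0% passed in either direction, with 2965 lower and 3594 higher at an unadjusted p under 0.05. At an unadjusted p under 0.05, 1 of the 9 was lower (Adgre1) and 0 higher, where 8.4% of 18820 genes were lower and 9.91% higher. The treated mean lay below the control mean for 7 of the 9, where it did for 43.7% of all genes. The treated livers differed from each other in these genes. On treated replicate 1 the values of 7 of the 9 genes lay below all 3 controls, where 29.5% of all genes did so, and 0 lay above all controls, where 36.2% did. Treated replicate 1 was the lowest of the 5 arrays for the same 7 genes, where it was for 16.2% of all genes. On treated replicate 2 only Adgre1 lay below all 3 controls, where 31.2% of all genes did so. On that array 5 of the 9 lay inside the range of the controls, where 28.3% did. The other 3 lay above it (Cd5l, Clec1b and Hpgd), where 40.5% of all genes did so. Every one of the 9 was lower on treated replicate 1 than on treated replicate 2, where 46.3% of all genes were. Each of them was also lower on control replicate 1 than on control replicate 2, so such an ordering is not particular to the treated pair. In whole tissue, fewer Kupffer cells and less RNA per Kupffer cell cannot be told apart.

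**Figure D1:**
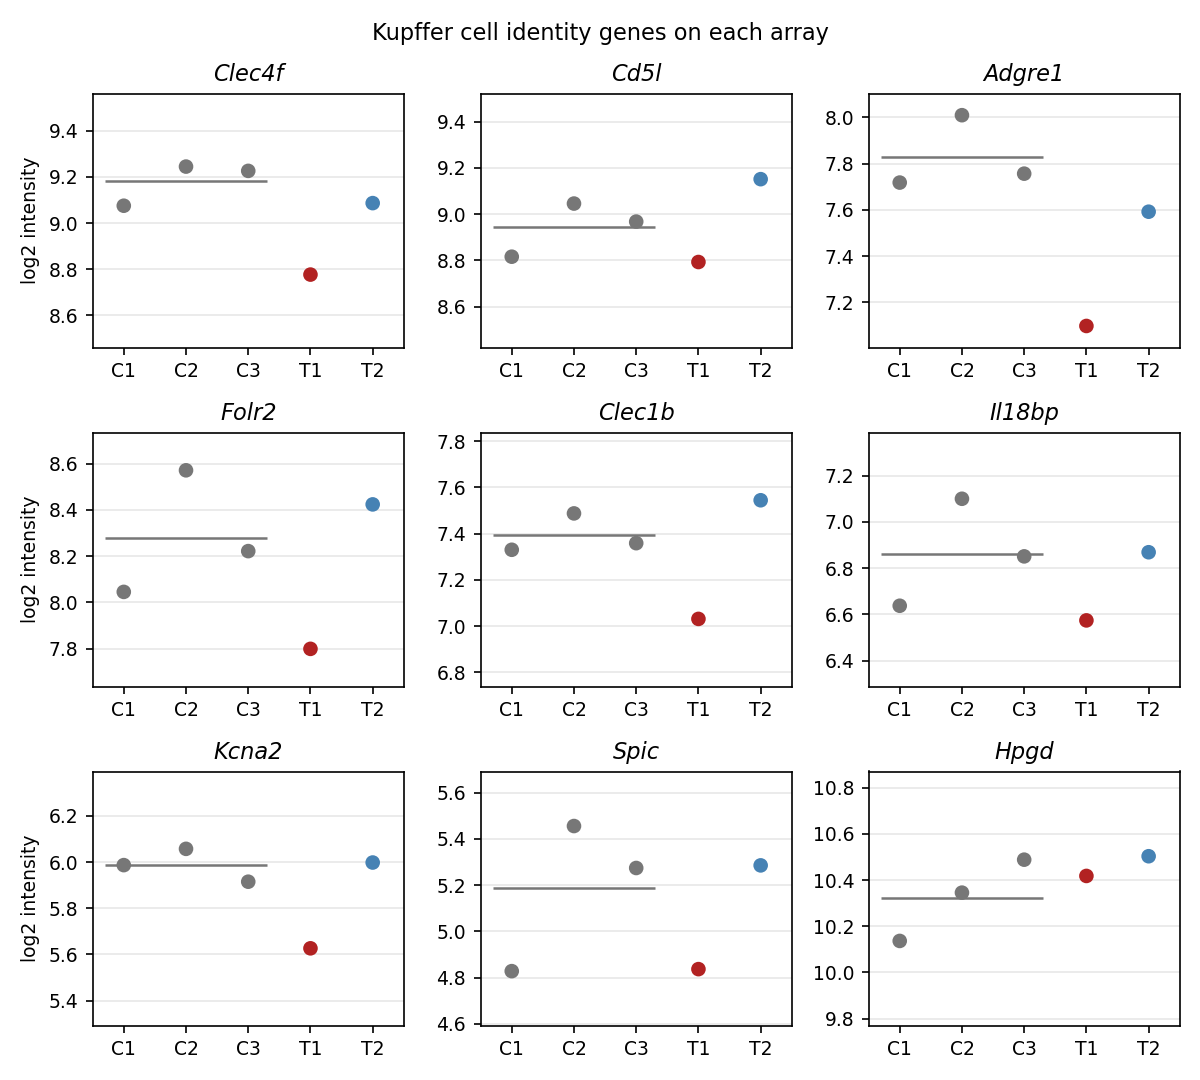
Log2 probe set intensity of each measured Kupffer cell identity gene on the control arrays (C1 to C3, grey, with their mean as a line) and on treated replicates 1 (T1, red) and 2 (T2, blue), each panel spanning the same log2 height. T1 is the lowest point in 7 of the 9 panels, and T2 lies below all controls only for Adgre1.

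The surface receptors of the set come first, since such receptors are used in sorting and staining. Adgre1, the adhesion G protein-coupled receptor F4/80, had an intensity of 211, 258 and 216 on control replicates 1, 2 and 3, 137 on treated replicate 1 and 193 on treated replicate 2. Both treated values lay below all controls, and it was the only gene of the set for which the groups did not overlap in this way, as they did not for 19.5% of all genes. On the log2 scale treated replicate 1 stood -0.73 from the control mean (at 60.3% of it) and treated replicate 2 stood -0.24 from it (at 84.9%), against a control SD of 0.16 (n = 3). The mean difference was -0.48 ± 0.18 (SE, 3 control and 2 treated arrays; adjusted p = 0.252 in limma), with a 95% interval of -0.93 to -0.04. It was at -0.24 without treated replicate 1 and at -0.73 without treated replicate 2, and its unadjusted p, 0.0381 in limma, exceeded 0.05 when any 1 of the controls or treated replicate 1 was left out.

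Clec4f, the lectin most particular to Kupffer cells in the mouse, had an intensity of 539, 606 and 599 on the controls, 439 on treated replicate 1 and 544 on treated replicate 2. Treated replicate 1 was the lowest of the 5 arrays, while treated replicate 2 lay just inside the low end of the control range. The log2 differences were -0.40 (75.5% of the control mean) and -0.10 (93.6%), and the mean difference was -0.25 ± 0.14 (SE; adjusted p = 0.349 in limma). Its 95% interval, -0.58 to 0.08, corresponds to 66.8% to 106% of the control mean. Without treated replicate 2 it stood at -0.40, with an adjusted p of 0.342 in limma.

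Clec1b encodes CLEC-2, a receptor for podoplanin that signals through Syk and is also carried by platelets. Its intensity was 161, 179 and 164 on the controls, 131 on treated replicate 1 and 187 on treated replicate 2. The treated values fell on opposite sides of the controls, with treated replicate 1 below all of them and treated replicate 2 above all of them. The log2 differences were -0.36 and 0.15, with a control SD of 0.08 (n = 3), so each was larger than that spread, and their mean was -0.10 ± 0.17 (SE; adjusted p = 0.736 in limma). With quantile normalization or cyclic loess the mean difference turned to 0.02, with treated replicate 1 still negative (-0.22 and -0.23) and treated replicate 2 still positive (0.26 and 0.28).

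Folr2, the folate receptor beta of tissue-resident macrophages, had the widest gap between the treated livers. Its intensity was 264, 380 and 299 on the controls, 223 on treated replicate 1 and 343 on treated replicate 2. Treated replicate 1 was the lowest array, and treated replicate 2 lay between control replicates 2 and 3. The log2 differences were -0.48 and 0.14, 0.63 apart, with a control SD of 0.27 (n = 3), and the mean difference was -0.17 ± 0.24 (SE; adjusted p = 0.692 in limma).

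**Figure D2:**
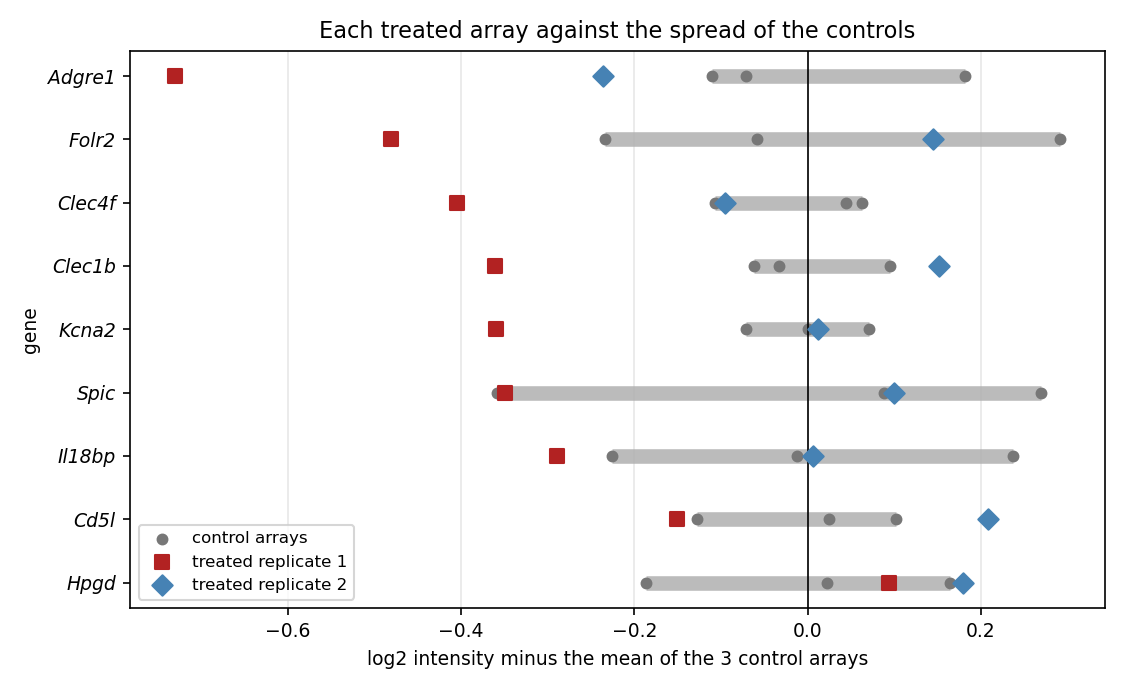
Log2 intensity minus the mean of the 3 controls for each gene (rows), with the control arrays in grey, their range as a bar, treated replicate 1 as red squares and treated replicate 2 as blue diamonds. The red squares run from -0.73 for Adgre1 to 0.09 for Hpgd and lie left of the control bar in 7 rows, while the blue diamonds run from -0.24 to 0.21.

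Secreted products of Kupffer cells in the set are Cd5l and Il18bp. Cd5l encodes AIM, a scavenger protein of macrophages that circulates bound to IgM and supports macrophage survival. It had an intensity of 451, 529 and 501 on the controls, 444 on treated replicate 1 and 569 on treated replicate 2. Treated replicate 1 was only just the lowest array, at -0.15 on the log2 scale (90.1% of the control mean), and treated replicate 2 was the highest, at 0.21 (116%). The mean difference of 0.03 ± 0.15 (SE; adjusted p = 0.921 in limma) averages these opposite values, and it turned to -0.15 without treated replicate 2, to 0.21 without treated replicate 1 and to -0.03 without control replicate 1. Il18bp, the soluble protein that neutralises interleukin 18, had an intensity of 99.5, 137 and 115 on the controls, 95.2 on treated replicate 1 and 117 on treated replicate 2. Treated replicate 1 lay close under control replicate 1, and treated replicate 2 lay at the control mean. The log2 differences were -0.29 and 0.01, with a control SD of 0.23 (n = 3).

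Intracellular and membrane genes of the set behaved unevenly. Kcna2, which encodes a voltage-gated potassium channel subunit better known from neurons, had an intensity of 63.4, 66.6 and 60.3 on the controls, 49.4 on treated replicate 1 and 63.9 on treated replicate 2. Its controls were the closest together of the set, with an SD of 0.07 (n = 3), so that treated replicate 1 stood well below them at -0.36 and treated replicate 2 among them at 0.01. The mean difference was -0.17 ± 0.14 (SE; adjusted p = 0.500 in limma), and it was at 0.01 without treated replicate 1. Spic encodes SpiC, a transcription factor that haem induces in iron-recycling macrophages. It had an intensity of 28.4, 43.9 and 38.7 on the controls, 28.6 on treated replicate 1 and 39.0 on treated replicate 2. Control replicate 1 was as low as treated replicate 1, and the SD of 0.32 (n = 3) was the widest among the controls, so treated replicate 1, at -0.35, and treated replicate 2, at 0.10, both lay within the range of the controls.

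Hpgd, the enzyme that inactivates prostaglandins by oxidising their hydroxyl group, was the exception on treated replicate 1. Its intensity was 1125, 1301 and 1436 on the controls, 1368 on treated replicate 1 and 1451 on treated replicate 2. Both treated values lay above the control mean, by 0.09 and 0.18 on the log2 scale, and the mean difference was 0.14 ± 0.14 (SE; adjusted p = 0.574 in limma), within the control SD of 0.18 (n = 3). Ptgs1, the constitutive cyclooxygenase that acts upstream in the same pathway, was not analysed here.

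Set against all genes, the 9 had a median log2 difference of -0.36 on treated replicate 1, where the median of 18820 genes was 0.02, and of 0.10 on treated replicate 2, where it was 0.04. Both medians use the same controls and are not independent of each other. The control means of the 9 stood at the 45.7th (Spic) to 95.7th (Hpgd) percentile of all genes. The 75th percentile of intensity over all probe sets was 148 and 150 on the treated arrays and 160 to 164 on the controls. The median treated minus control difference over all probe sets was 0.05, and -0.09 without probe sets under the median. The part of this in the comparison with all genes was not tested. Adgre1 stood at the 0.84th percentile of all genes on treated replicate 1, Folr2 at the 3.21st and Clec4f at the 5.14th, while Cd5l was at the 23.5th and Hpgd at the 62.4th. On treated replicate 2 the same 5 genes stood at the 20.5th, 64.3rd, 33.1st, 72.9th and 68.9th percentile. On treated replicate 1, 6 of the 9 genes were at least 20% below the control mean (Clec4f, Adgre1, Folr2, Clec1b, Kcna2 and Spic), where 8.61% of all genes were, and on treated replicate 2 0 of the 9 were, where 14.3% were.

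**Figure D3:**
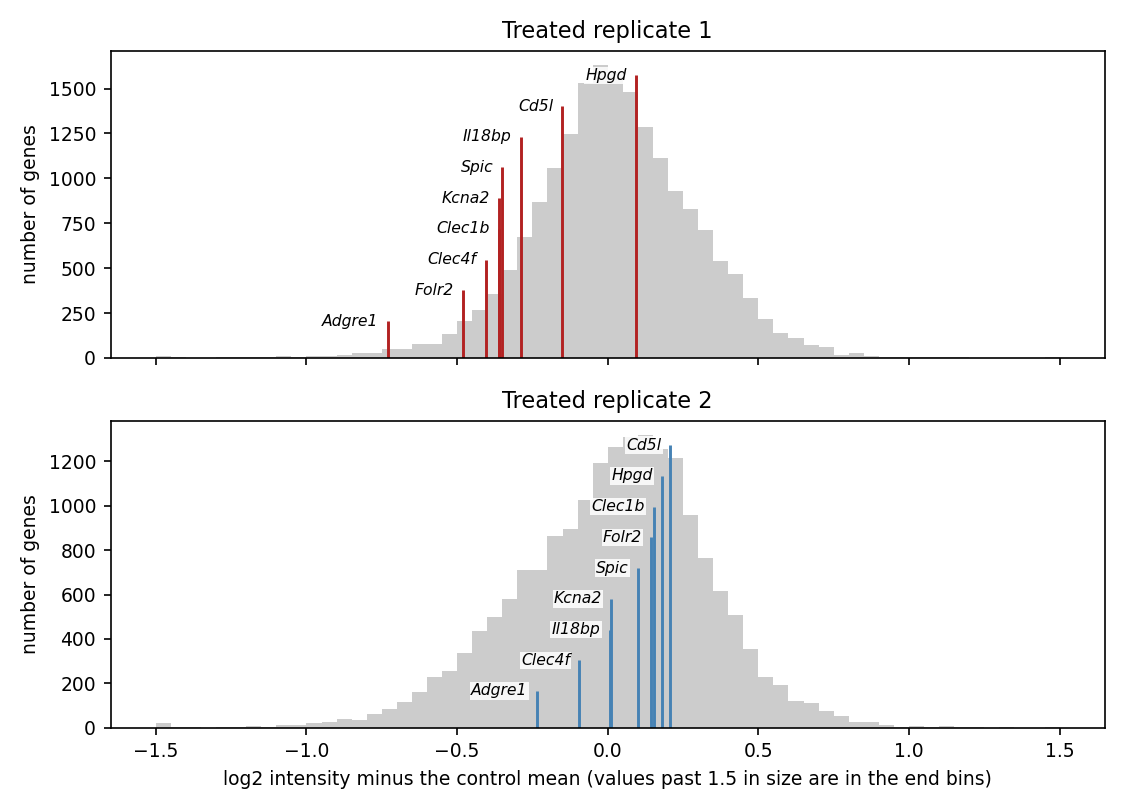
Histograms of log2 intensity minus the control mean over 18820 genes, for treated replicate 1 (top) and treated replicate 2 (bottom), with the Kupffer cell identity genes as labelled lines whose height has no meaning. On treated replicate 1 all but Cd5l and Hpgd lie in the lower flank, and on treated replicate 2 they lie around the centre of the distribution.

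Each treated array was also fitted alone against the 3 controls in limma, on the assumption that it varies like them. On treated replicate 1 the unadjusted p was under 0.05 for 4 of the 9 genes, all lower (Clec4f, Adgre1, Clec1b and Kcna2), where 4.92% of all genes were, and 0 were higher, where 8.55% were. Of the 9, 0 passed after adjustment over all probe sets (smallest adjusted p = 0.320, for Adgre1). On treated replicate 2 it was under 0.05 for 0 of the 9, where 10.4% of all genes were lower and 10.3% higher. The difference between the treated arrays was not tested, since each is a single sample. Treated replicate 1 was lower than treated replicate 2 by 0.09 (Hpgd) to 0.63 (Folr2), with a median of 0.37, where the median gap of all genes was -0.02.

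The controls differed too. Control replicate 2 was the highest control for 8 of the 9 genes, all but Hpgd, where it was for 35.9% of all genes. The count of genes with treated replicate 1 below every control cannot fall when a control is left out. Without control replicate 2 it was 7, where 35.8% of all genes lay below the remaining controls. The differences of treated replicate 1 were then -0.64 for Adgre1, -0.37 for Clec4f and -0.34 for Folr2, while Spic moved to -0.21 and Il18bp to -0.17. The summed intensity of the 9 genes, to which Hpgd contributes most, was 2942, 3501 and 3429 on the controls, 2914 on treated replicate 1 and 3506 on treated replicate 2, so that treated replicate 2 reached the level of the highest control.

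Of 25 other genes known for their expression in Kupffer cells, 24 were measured, and 17 were lower and 7 higher in mean. At an unadjusted p under 0.05, 5 were lower and 1 higher, where 8.4% and 9.91% of all genes were, and 0 passed after adjustment in limma. Both treated arrays lay below all controls for 7 of them and above for 2, where 19.5% and 25.1% of all genes did so. The scavenger receptor gene Cd163 had an intensity of 79.0, 100.2 and 90.0 on the controls and 45.9 and 57.0 on treated replicates 1 and 2. Siglec1, which encodes the sialic acid receptor sialoadhesin, had 121, 160 and 137 on the controls and 80.5 and 85.5 on the treated arrays. Both genes were low in both livers, with log2 differences of -0.96 and -0.65 for Cd163 and of -0.78 and -0.69 for Siglec1. The scavenger receptor gene Marco went the other way in both livers, at 35.2, 29.6 and 25.5 on the controls and 69.3 and 81.9 on the treated arrays. Timd4 (-0.54 and 0.04), a phosphatidylserine receptor, and Vsig4 (-0.35 and 0.11), a complement receptor, were negative on treated replicate 1 and positive on treated replicate 2, as Clec1b and Folr2 were.

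**Figure D4:**
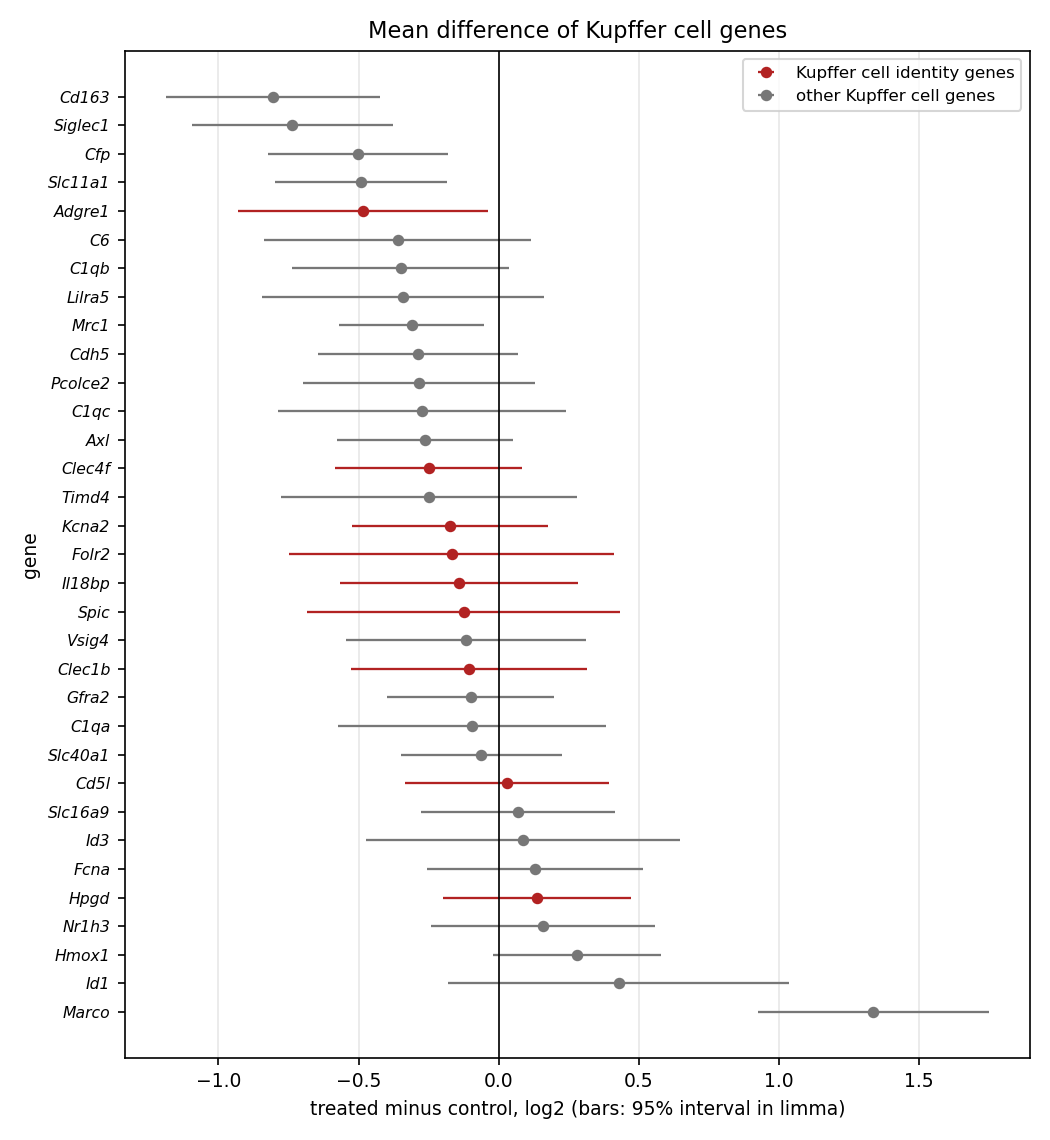
Mean log2 difference between treated and control arrays with its 95% interval in limma, for the 9 Kupffer cell identity genes (red) and 24 other Kupffer cell genes (grey), ordered by size. Of the red intervals only that of Adgre1 excludes 0 without adjustment, and the gene at the bottom, Marco, is the highest.

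General macrophage genes, which Kupffer cells share with macrophages of other origin, were lower in mean for 17 of 18, where 43.7% of all genes were, and both treated arrays lay below all controls for 7, where 19.5% of all genes did. Their median stood -0.53 from the control mean (log2) on treated replicate 1 and -0.23 on the other treated array, beside -0.36 and 0.10 for the Kupffer cell identity genes. At an unadjusted p under 0.05, 6 were lower and 0 higher, where 8.4% and 9.91% of all genes were, and 0 passed after adjustment in limma. The receptor gene Csf1r had an intensity of 359, 410 and 390 on the controls, 244 on treated replicate 1 and 278 on treated replicate 2, a log2 difference of -0.66 and -0.47. Ctss, a lysosomal protease, was at -0.82 and -0.38, and Mpeg1, a pore-forming protein of phagocytes, at -0.56 and -0.57. The difference between this list and the Kupffer cell identity genes was not tested. The median difference of the other Kupffer cell genes was -0.26 in the comparison as made. It was -0.03 without treated replicate 1, -0.14 without control replicate 2, and -0.15 and -0.14 with quantile normalization and cyclic loess. For the general macrophage genes it was -0.33 in the comparison as made. Theirs was -0.23 without treated replicate 1 or control replicate 2, -0.24 with quantile normalization or cyclic loess, and -0.53 without treated replicate 2.

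Transcription factors and niche signals that maintain Kupffer cell identity gave 11 lower and 6 higher of 17 measured genes (19 listed). At an unadjusted p under 0.05 in limma there were 0 in either direction, where 8.4% of all genes were lower and 9.91% higher. Nr1h3, which encodes LXR alpha, was at -0.01 and 0.33 on treated replicates 1 and 2, and Id3, an inhibitor of DNA binding that Kupffer cells need, at -0.12 and 0.29. Of the niche signals, the Notch ligand gene Dll4 was at -0.37 and -0.31. Of the transcription factors, Rbpj, a nuclear effector gene of Notch, was at -0.18 and -0.28. Dll4 and Rbpj were the 2 of 17 genes below all controls on both arrays, where 19.5% of all genes were, while 1 was above, where 25.1% were. Of 14 genes of haem and iron handling, the setting in which Spic acts, 3 were lower and 0 higher at an unadjusted p under 0.05, where 8.4% and 9.91% of all genes were. These were Cd163, the metal transporter gene Slc11a1 (-0.59 and -0.39) and the haem exporter gene Flvcr1 (-0.40 and -0.66).

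For the prostaglandin pathway, to which Hpgd and Ptgs1 belong, 20 of 21 other genes were measured, with 8 lower and 12 higher in mean. At an unadjusted p under 0.05 in limma, 4 were lower and 2 higher, where 8.4% and 9.91% of all genes were. Tbxas1, the thromboxane synthase gene, was at -0.58 and -0.29, Ptgr1, a prostaglandin reductase gene, at -0.58 and -0.34, and the prostaglandin D synthase gene Ptgds at -0.34 and -0.62. The inducible cyclooxygenase gene Ptgs2 had an intensity of 14.3, 245 and 15.3 on the controls and 22.4 and 17.9 on the treated arrays. Its control SD was 2.34 (n = 3), and its differences of -0.75 and -1.08 lay within that spread. Their negative sign came from control replicate 2 alone, as both treated values lay above the other controls. Around Il18bp, 10 of 11 genes of the interleukin 18 pathway were measured and gave 5 lower and 5 higher. At an unadjusted p under 0.05 in limma, 2 were higher (Il18r1 and Ifng) and 0 lower, where 9.91% and 8.4% of all genes were. The cytokine gene Il18 itself was at -0.21 and 0.28, and Gsdmd, which encodes the pore protein gasdermin D, at -0.24 and -0.27.

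Relatives of the lectin, adhesion receptor and folate genes gave 13 lower and 6 higher of 19. At an unadjusted p under 0.05 in limma, 4 of them were lower and 1 higher, where 8.4% and 9.91% of all genes were. The lectin genes Clec4a1 (-0.57 and -0.25) and Clec4a2 (-0.23 and -0.34) lay below all controls on both arrays. Clec4g, a lectin gene of sinusoidal endothelial cells, was at 0.30 and 0.32 and above all controls on both. The 8 potassium channel genes related to Kcna2 gave 1 lower and 7 higher, with a median of 0.27 on treated replicate 1 and 0.20 on treated replicate 2, led by Kcna1 (0.38 and 0.22) and Kcna6 (0.23 and 0.35). The 25th percentile of intensity over all probe sets was 13.4 and 12.8 on the treated arrays and 11.7 to 11.9 on the controls. The part of this in the dim channel genes, and in other dim genes of the lists such as Il18r1 and Ifng, was not tested.

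Markers of other cell types give the setting of the comparison. Platelets carry CLEC-2 and cyclooxygenase 1, and of 6 measured platelet and megakaryocyte markers (of 10 listed) 2 were lower and 4 higher, with a summed intensity of 227 to 277 on the controls, 231 on treated replicate 1 and 320 on treated replicate 2. Of these, Pf4 was at -0.24 and 0.13 and Itga2b at 0.16 and 0.02. The sum moved mainly with the chemokine gene Ppbp, at 106, 116 and 70.9 on the controls and 68.2 and 148 on the treated arrays, and without it was 156 to 164 on the controls and 163 and 172 on treated replicates 1 and 2. Their part in Clec1b was not tested. Of 8 measured monocyte markers (10 listed) 5 were lower and 3 higher in mean. Both treated arrays lay below all controls for 2 and above for 2, where 19.5% and 25.1% of all genes did so. Cx3cr1, a receptor of patrolling monocytes, was at -0.67 and -0.46, the integrin gene Itgal at -0.83 and -0.33, and Ccr2, a receptor of classical monocytes, at 0.09 and 0.09. Their summed intensity, 423 to 655 on the controls and 424 to 528 on the treated arrays, moved mainly with Nr4a1, and without it was 359 to 429 on the controls and 292 and 392 on treated replicates 1 and 2. Hepatocyte markers (8 of 10) summed to 53643 to 55741 on the controls and 52243 to 53837 on the treated arrays, and sinusoidal endothelial markers (10 of 10) to 5589 to 5871 and 6063 to 6271. Of these endothelial markers 5 were lower and 5 higher in mean, with a median difference of -0.01, and without Clec4g, which alone was at 1658 to 1741 on the controls and at 2074 and 2106 on the treated arrays, their sum was 3931 to 4162 on the controls and 4197 and 3957 on treated replicates 1 and 2. The markers of the labelled tissue were thus measured on every array, and no intensity in the table is at 0, so no marker could be called absent. For neutrophils (10 of 10 measured), dendritic cells (10 of 10), B cells (7 of 8), T and NK cells (10 of 11), eosinophils and mast cells (8 of 8), stellate cells (9 of 9), bile duct cells (5 of 6) and red cell precursors (4 of 7), medians ran from -0.03 to 0.27 on treated replicate 1 and from -0.23 to 0.34 on treated replicate 2. Of these 8 lists, only B cell markers had a median under 0 on treated replicate 1 and only bile duct markers on treated replicate 2, at -0.03 and -0.23.

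**Figure D5:**
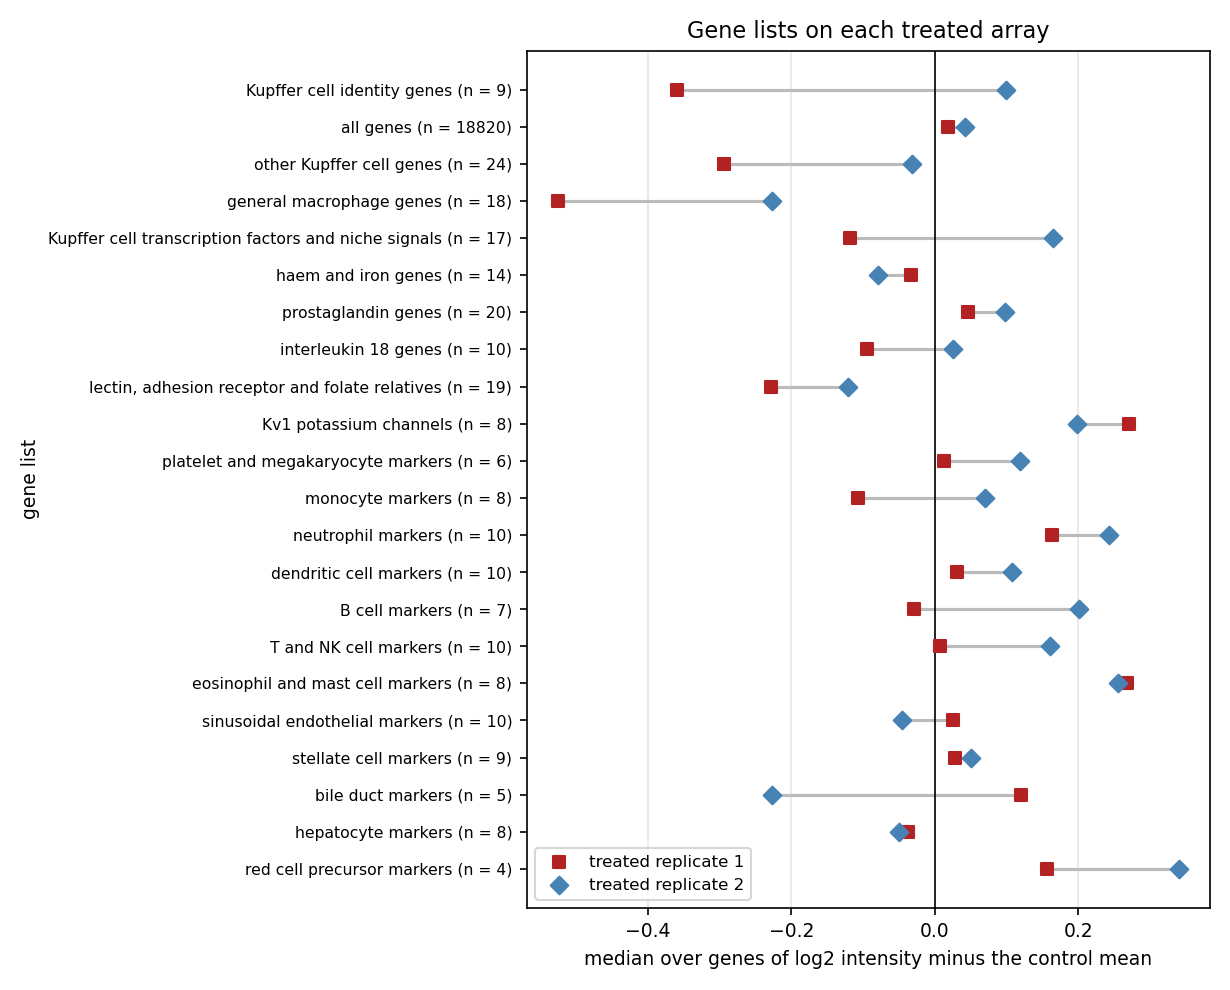
Median over each gene list (rows, with the number of measured genes) of log2 intensity minus the control mean, for treated replicate 1 (red squares) and treated replicate 2 (blue diamonds). The Kupffer cell identity genes stand at -0.36 and 0.10 and general macrophage genes at -0.53 and -0.23, beside 0.02 and 0.04 for all genes.

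The genes whose values over the 5 arrays were most like those of Clec4f were Ralb, Sh3rf1, Strada, Lrrc29 and Pex10, with a root mean square distance of 0.015 to 0.033 on the log2 scale once each gene was centred on its control mean. As 370 of the 9409 genes compared lay within 0.1 of Clec4f, so small a difference over 5 arrays singles out few genes. Among the Kupffer cell identity genes the nearest was Kcna2, at 0.088, followed by Il18bp and Clec1b, each at 0.12, and the farthest was Hpgd, at 0.26. Among the 9409 genes compared, Kcna2 stood at rank 223, Il18bp at 748, Clec1b at 762 and Hpgd at 6971. Many genes outside the set thus lay nearer to Clec4f than any other gene of the set did.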

How the data were processed

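Probe set intensities on a linear scale were deposited by the authors, 1 column per array for 35556 probe sets. The intensities were made with Affymetrix Expression Console 1.1, per the submitters' processing notes; how it summarised and scaled the arrays is not given in the sources used here. Array medians lay between 32.5 and 33.9. Log2 was taken with no pseudocount or filter. The annotation of the platform, possibly outdated, gave 1 symbol to 21218 probe sets, several to 1881, and did not list 12457; Ptgs1 matched none by symbol, synonym, gene number or accession. For each gene the probe set of highest mean was taken.

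The 2 treated and 3 control arrays were fitted with limma (version 3.58.1, in R 4.3.3; lmFit, then eBayes, with 3.03 prior degrees of freedom added to 3 residual ones). All p-values are two-sided, and adjusted ones follow Benjamini and Hochberg over the whole table, called under 0.05. The number of arrays limits the precision, with a median standard error of 0.138 on the log2 scale, and an exact permutation test of 2 against 3 arrays was not used. The steps were tested on simulated data. The genes of the set and the lists were chosen with earlier results of these data known. All genes of the set are named, and of each list at most the 3 genes of smallest p, beside Csf1r, Timd4, Vsig4, Marco, Cd163, Nr1h3, Id3, Pf4, Itga2b, Il18 and Ptgs2, while Ppbp and Nr4a1 were named after their values were seen; no p is given for a list. The alternatives were quantile normalization, median centring, cyclic loess, a pseudocount of 16, filters on dim probe sets, 1 probe set per gene, other variance models, a replicate block and leaving out each array. Plots were made in Python 3.11.15 (matplotlib 3.10.9).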

Additional observations from a re-analysis of the deposited data

How the results depend on the processing

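Of 135 differences of the 9 genes recomputed under 15 alternatives, 0 passed an adjusted p of 0.05 in limma, and 124 kept their direction. In 11 cases the sign turned. With quantile normalization Clec1b turned to 0.0168 and Il18bp to 0.0138, and with cyclic loess Clec1b to 0.0242. When arrays were left out, Cd5l ranged from -0.15 to 0.208, Spic from -0.349 to 0.0996, Folr2 from -0.481 to 0.144, Clec1b from -0.361 to 0.152, Il18bp from -0.289 to 0.00604 and Kcna2 from -0.36 to 0.0117. Adgre1 (-0.731 to -0.236) and Clec4f (-0.405 to -0.0954) kept their direction under every alternative run, as did Hpgd (0.0436 to 0.22). The cause of these shifts was not tested, beyond that 8 of the 11 came from leaving out an array. Both treated arrays lay below all controls for 2 genes with quantile normalization, and for 1 to 7 when an array was left out, and above for 0 to 3. The 7 and the 3 are counts for the 1 treated array that remained; with both kept, leaving out a control gave 1 to 2 below and 0 to 1 above. The number of genes at an unadjusted p under 0.05 was 0 with quantile normalization and with cyclic loess, and 0 to 4 when an array was left out. Treated replicate 1 lay below all controls for 6 genes with quantile normalization or cyclic loess, for 6 to 8 over all alternatives that kept it, and below treated replicate 2 for 9 in each that kept both; these counts and the list medians were added after seeing the data. Over all probe sets 0 passed except with 1 probe set per gene, where 9 were lower and 5 higher, none of them in the set. The replicate block, tried because the labels number both groups, called 0 and gave Adgre1 -0.519 (adjusted p = 0.403 in limma). Same-numbered arrays correlated at 0.027 and 0.033 in their deviations from the group means. With 2 treated arrays, the deviations of each mirror those of the other by construction. The same controls therefore correlated at -0.027 and -0.033 with the treated array of the other number. Such values cannot settle whether the numbers pair the samples. A second probe set or a mean over probe sets could not be tried, as each gene had 1. How far background intensity narrows the differences of dim genes such as Spic is not known here.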
